A study of Homo sapiens with 6 samples.

Results

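The genes described here encode the replication-independent histone variants, which are made throughout the cell cycle rather than only in S phase. A fixed set of 9 gene symbols was taken, among 78932 gene identifiers: H2AZ1, H2AZ2, H2AX, H2AJ, H3-3A, H3-3B, H1-10, MACROH2A1 and MACROH2A2. The symbols were set by gene family and by no threshold on measured values, though earlier results of these data were known. RNA was sequenced from KARPAS-45, an established human line of T-cell acute lymphoblastic leukaemia in which KMT2A is fused to FOXO4, in a study of menin, a cofactor of KMT2A. Control cells, with the genotype WT and no treatment, were compared with MEF2C-OE cells, also untreated, which had received a lentiviral vector that expresses the transcription factor MEF2C from the EF1A promoter and is linked to mCherry. MEF2C-OE cells were sorted for mCherry 120 hours after transduction. Whether control cells received a vector or a sort was not given in the sources used here, so vector, sort and MEF2C cannot be told apart. Each group had 3 libraries, which the labels call technical replicates of 1 cell line, and the p-values therefore reflect the spread between these libraries, which may be technical.

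Most histone genes lie in clusters, lack introns and give mRNA that ends in a stem-loop and not in a poly(A) tail. Variant genes mostly lie alone, usually give polyadenylated mRNA, and supply histones that are placed in or removed from chromatin outside replication by dedicated complexes. H2AX is known to give both kinds of mRNA. H2A.Z and H3.3 mark promoters and enhancers with rapid nucleosome exchange, H2AX is phosphorylated around DNA breaks, and the macroH2A proteins carry a large extra domain and are enriched in repressed chromatin. H1-10 is a linker histone that lies outside the histone clusters.

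Of the 9 genes, 8 had enough reads to be tested and H2AJ did not. H2AZ2, H2AX, MACROH2A1 and MACROH2A2 were higher in the MEF2C-OE libraries, H3-3A was lower, and H2AZ1, H3-3B and H1-10 did not pass the test. A gene passed at an adjusted p under 0.05 in edgeR's quasi-likelihood test, with Benjamini-Hochberg adjustment over 19086 genes. By that rule 41% of all tested genes passed, 20.8% as higher and 20.2% as lower. Control and MEF2C-OE libraries stood apart, with no overlap, in 5 of the 8 genes and in 48.8% of all tested genes. The median log2 fold change was 0.14 over the 8 genes and -0.01 over all tested genes. The median of the absolute log2 fold change was 0.28 for the 8 genes and 0.21 for all tested genes.

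Reads assigned to genes numbered 48218497 to 56890745 in a library, and 3 reads corresponded to 0.0527 to 0.0622 CPM, the count of a gene scaled to a common library size. MEF2C itself had 10, 1 and 0 reads in the control libraries and 40, 29 and 41 in the MEF2C-OE libraries. These counts were all below those of MACROH2A2, which had 204 to 315 reads in a library. The difference in MEF2C therefore rests on few reads. The label of a T-lineage line was checked against 9 T-lineage marker genes, and all 9 had at least 10 reads in every library. Their summed level was 3390 to 3420 CPM in control and 2940 to 3090 CPM in MEF2C-OE. For other cell types, the libraries gave 11.4 to 13.3 CPM against 10.8 to 12.2 CPM for 5 B-cell markers (2 with at least 10 reads in every library) and 0.488 to 1.01 CPM against 0.493 to 0.726 CPM for 5 myeloid markers (1 such gene). The 4 erythroid markers summed to 0 CPM in control and 0 to 0.0352 CPM in MEF2C-OE, and the 4 natural killer markers to 1.48 to 2.22 CPM against 1.41 to 1.58 CPM. The 5 stromal, endothelial and epithelial markers, called stromal here, summed to 5.32 to 6.11 CPM in control and 1.33 to 1.89 CPM in MEF2C-OE. Markers at 0 in every library were MS4A1 (B cell), ELANE (myeloid), HBB and ALAS2 (erythroid), NCAM1 and NCR1 (natural killer) and EPCAM, an epithelial gene kept in the stromal list. The T-lineage and stromal sums differed between groups without overlap, and their part in the results was not tested. In these bulk libraries fewer cells of a type and less RNA per cell cannot be told apart.

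The 250 bases before the start of transcription are shown for 4 genes, 2 that rose (H2AZ2 and H2AX) and 2 that did not pass the test (H2AZ1 and H3-3B), because these promoters share a motif and not a direction. They are taken from RefSeq (GRCh38.p14), run 5′ to 3′ on the strand of the gene, and have in capitals the CCAAT box in either orientation, to which the factor NF-Y binds, and the TATA box (TATAAA) on the coding strand. H2AZ1 lies at chr4:99950276-99950525, H2AZ2 at chr7:44848088-44848337, H2AX at chr11:119095466-119095715 and H3-3B at chr17:75779780-75780029, all on the minus strand. The H3-3B window lies within the longer gene span that GENCODE 29 gives. The H2AZ1 window reaches into the GENCODE 29 span of its gene, and the H2AX window touches the edge of its own.
H2AZ1: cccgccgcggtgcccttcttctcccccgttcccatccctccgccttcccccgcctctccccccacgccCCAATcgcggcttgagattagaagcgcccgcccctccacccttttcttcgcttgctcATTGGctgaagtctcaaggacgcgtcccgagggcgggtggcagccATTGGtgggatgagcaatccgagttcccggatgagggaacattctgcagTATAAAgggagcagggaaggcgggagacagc
H2AZ2: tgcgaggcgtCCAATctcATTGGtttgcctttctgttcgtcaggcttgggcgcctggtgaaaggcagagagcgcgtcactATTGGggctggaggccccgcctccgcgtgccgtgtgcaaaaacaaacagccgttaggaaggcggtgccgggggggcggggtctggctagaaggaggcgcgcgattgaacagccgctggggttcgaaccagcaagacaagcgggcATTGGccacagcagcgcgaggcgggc
H2AX: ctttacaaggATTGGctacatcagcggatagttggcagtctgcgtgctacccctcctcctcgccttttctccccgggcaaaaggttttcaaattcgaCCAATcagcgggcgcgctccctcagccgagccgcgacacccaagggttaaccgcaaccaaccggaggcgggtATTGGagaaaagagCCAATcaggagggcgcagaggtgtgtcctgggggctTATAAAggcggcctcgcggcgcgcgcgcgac
H3-3B: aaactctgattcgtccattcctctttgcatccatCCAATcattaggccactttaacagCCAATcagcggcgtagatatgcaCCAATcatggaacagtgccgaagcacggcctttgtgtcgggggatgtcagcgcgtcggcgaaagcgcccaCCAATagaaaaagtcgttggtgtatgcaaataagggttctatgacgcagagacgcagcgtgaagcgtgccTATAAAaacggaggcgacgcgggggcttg
The CCAAT count was 3 in H2AZ1 and 4 in each of H2AZ2, H2AX and H3-3B. H2AJ, with almost no reads, also had 3. At least 3 copies were present in 2.93% of 35116 promoter windows of the same length, and at least 1 copy in 32.0%. H1-10 and MACROH2A2 had none, the 4 alternative H3-3A windows had 1, 1, 0 and 1, and the pair of MACROH2A1 windows had 0 and 2. TATAAA was found in H2AZ1, H2AX, H3-3B and H1-10, against 6.80% of all windows. The cell-cycle element TTTGAA or TTCGAA, on either strand, was found in H2AZ2 and H2AX, against 14.3% of all windows. No window of the 9 genes held the E2F letters TTTGGCGC or TTTCCCGC (1.93% of all windows) or the MEF2 consensus (2.80%), on either strand. These counts describe letters in a window and not binding.

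The H2A.Z genes encode nearly the same protein, and H2AZ2 rose while H2AZ1 did not pass the test. H2AZ1 (ENSG00000164032.12, minus strand, chr4:99948086-99950388 in GRCh38) encodes H2A.Z.1, and H2AZ2 (ENSG00000105968.19, minus strand, chr7:44826791-44848083) encodes H2A.Z.2. H2AZ2 was at 460, 472 and 467 CPM in the control libraries and at 578, 596 and 584 CPM in the MEF2C-OE libraries. Every MEF2C-OE library was above every control library. The means were 466 ± 5.76 and 586 ± 9.18 CPM (SD, n = 3 libraries each), a ratio of 1.26 and a log2 fold change of 0.33 ± 0.0215 (SE), with an adjusted p of 1.41e-16 in edgeR. H2AZ1 was at 431, 479 and 479 CPM in control and at 456, 482 and 435 CPM in MEF2C-OE. These groups overlapped, and both spread more than those of H2AZ2. Its log2 fold change was -0.02 (95% interval -0.17 to 0.13, edgeR adjusted p = 0.856), so a change of the size seen in H2AZ2 lies outside the interval.

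The balance within the H2A.Z pair was expressed as the H2AZ1 share of reads per length of the principal transcript. This share was 41.8%, 43.8% and 44.1% in control and 37.8%, 38.3% and 36.3% in MEF2C-OE. The groups did not overlap, with means of 43.3% ± 1.24 in control and 37.5% ± 1.01 in MEF2C-OE (SD, n = 3 each), a difference of -5.78 percentage points. An exact two-sided permutation test gave p = 0.1, the smallest that 3 against 3 libraries allow, and 0.2 after adjustment over 4 gene pairs. With the length of all exons combined, the difference was -5.50 percentage points. By that length H2AZ1 was the higher gene of the pair, at 201 against 98.2 CPM per kilobase in control. Which gene supplies more therefore depends on the length used. The summed H2A.Z level was 930 ± 33.1 CPM in control and 1044 ± 30.7 CPM in MEF2C-OE, a ratio of 1.12 (exact permutation p = 0.1). Over their 384 coding bases H2AZ1 and H2AZ2 differ at 75, of which 64 are codon position 3.

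H2AX had the largest fold change of the 8 tested genes. H2AX (ENSG00000188486.4, 1 exon, minus strand, chr11:119093854-119095467) encodes the H2A variant whose C-terminal serine is phosphorylated at DNA breaks. Its last 27 coding bases (GRCh38, minus strand, chr11:119094966-119094992) carry in capitals the 4 codons of that C-terminal motif, the feature that sets H2AX apart from canonical H2A.
H2AX: aaggccacccaggccTCCCAGGAGTAC
H2AX was at 204, 203 and 206 CPM in the control libraries and at 289, 318 and 286 CPM in the MEF2C-OE libraries. The control libraries were close together, and MEF2C-OE replicate 2 was the highest. The means were 204 ± 1.47 and 298 ± 18 CPM (SD, n = 3 each), a ratio of 1.46. The log2 fold change was 0.54 ± 0.0294 (SE), with an edgeR adjusted p of 4.29e-16, and its size was at percentile 84.2 of all tested genes. Without MEF2C-OE replicate 2 the log2 fold change was 0.49. Counts per gene do not separate the kinds of mRNA that H2AX gives, so which of them rose cannot be told.

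H2AJ (ENSG00000246705.5, plus strand, chr12:14774383-14778002), an H2A variant known from senescent and secretory cells, was almost without reads. It had 0, 4 and 0 reads in control and 0 in all 3 MEF2C-OE libraries. The 4 reads correspond to 0.0752 CPM, beside a limit of 0.0527 to 0.0622 CPM for a count of 0. No difference in H2AJ was detectable at this depth.

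Both H3.3 genes encode the same protein, and the less abundant of them fell. H3-3A (ENSG00000163041.13, plus strand, chr1:226061851-226072001) was at 166, 179 and 175 CPM in control and at 141, 145 and 138 CPM in MEF2C-OE. Every MEF2C-OE library was below every control library. The means were 173 ± 6.63 and 141 ± 3.42 CPM (SD, n = 3 each), a ratio of 0.815. The log2 fold change was -0.30 ± 0.0282 (SE), with an edgeR adjusted p of 1.07e-11. H3-3B (ENSG00000132475.10, minus strand, chr17:75776434-75785893) was at 580, 568 and 585 CPM in control and at 587, 583 and 576 CPM in MEF2C-OE. These groups overlapped, with a log2 fold change of 0.01 (95% interval -0.03 to 0.05, edgeR adjusted p = 0.73).

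The last 90 coding bases show how reads of the H3.3 genes can be told apart although the proteins are the same. Capitals mark the 19 bases at which the genes differ. The H3-3A stretch lies at chr1:226071387-226071476 on the plus strand and the H3-3B stretch at chr17:75778598-75778687 on the minus strand (GRCh38).
H3-3A: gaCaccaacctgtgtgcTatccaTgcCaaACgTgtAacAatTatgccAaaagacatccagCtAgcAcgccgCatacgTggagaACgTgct
H3-3B: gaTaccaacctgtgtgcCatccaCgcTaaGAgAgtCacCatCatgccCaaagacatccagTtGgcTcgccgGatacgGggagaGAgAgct
Over all 408 coding bases the genes differ at 88, of which 77 are codon position 3. The pseudogene H3P6 is a closer match, since 28.7% of the 50-base stretches of the principal H3-3A transcript also occur in it. H3P6 had 1055, 1091 and 973 reads in control and 854, 766 and 897 in MEF2C-OE. Its log2 fold change was -0.32 ± 0.0672 (SE, edgeR adjusted p = 0.000125), so it was lower alongside H3-3A. How far these reads come from H3-3A was not tested, and the H3-3A level is uncertain to that extent.

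The H3-3A share of the H3.3 pair per length of the principal transcript was 37.2%, 39.4% and 38.2% in control and 33.2%, 33.9% and 33.1% in MEF2C-OE. The groups did not overlap, and the means differed by -4.87 percentage points, MEF2C-OE minus control (exact permutation p = 0.1, 0.2 adjusted over 4 pairs). With the length of all exons combined, the difference was -4.78 percentage points. The summed H3.3 level was 751 ± 7.66 CPM in control and 723 ± 7.94 CPM in MEF2C-OE (SD, n = 3 each), a ratio of 0.963 (exact permutation p = 0.1).

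**Figure D1:**
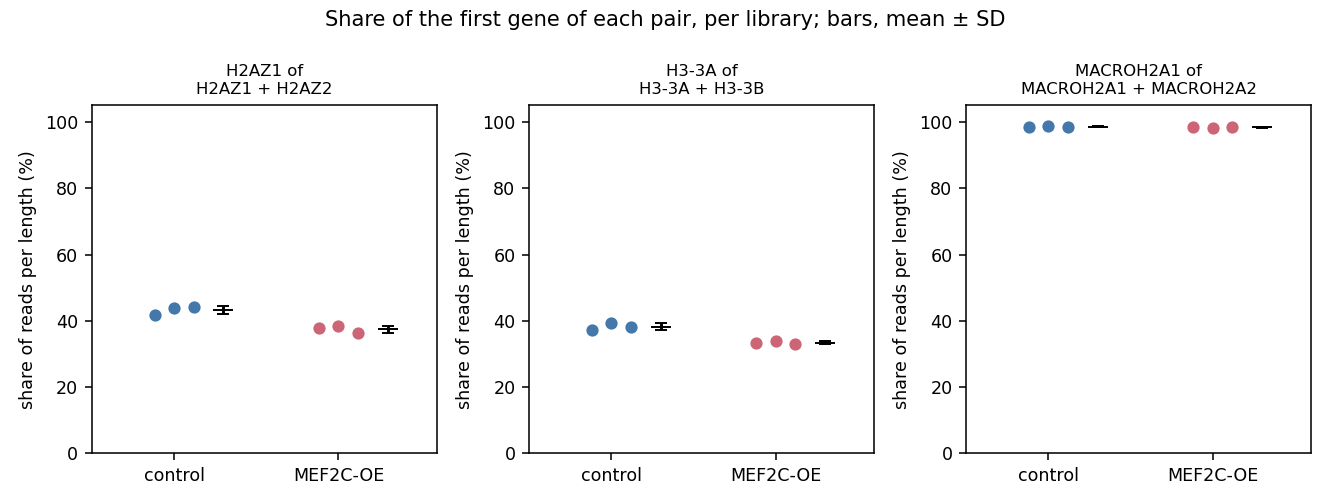
Share of the first gene of each pair in the reads of the pair, per length of the principal transcript (vertical axis, percent), in control (blue) and MEF2C-OE (red) libraries, with bars for the mean ± SD of 3 libraries. The H2AZ1 and H3-3A shares are lower in MEF2C-OE without overlap, and MACROH2A1 stays above 98% in each library by this length. The size of each share depends on the length used.

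Both macroH2A genes were higher in MEF2C-OE, at levels far apart. MACROH2A1 (ENSG00000113648.17, minus strand, chr5:135333900-135399914), the widely expressed gene of the pair, was at 420, 411 and 410 CPM in control and at 509, 489 and 504 CPM in MEF2C-OE. The groups did not overlap, and the means were 414 ± 5.77 and 501 ± 10.8 CPM (SD, n = 3 each), a ratio of 1.21. Its log2 fold change was 0.27 ± 0.0222 (SE), with an edgeR adjusted p of 9.79e-14. With GC and length trends removed, the log2 fold change of MACROH2A1 was 0.11 by its longest transcript of 10982 bases and 0.35 by its principal transcript of 2789 bases, both past the test. MACROH2A2 (ENSG00000099284.15, plus strand, chr10:70052796-70112280) had 236, 204 and 220 reads in control and 283, 294 and 315 in MEF2C-OE. These correspond to 4.14 ± 0.242 and 5.57 ± 0.453 CPM, without overlap. The log2 fold change of MACROH2A2 was 0.43 ± 0.122 (SE; 95% interval 0.18 to 0.67), with an edgeR adjusted p of 0.00418. MACROH2A1 supplied 98.6% of the reads of this pair per length of the principal transcript in control and 98.5% in MEF2C-OE, and these shares overlapped (exact permutation p = 0.2, 0.267 adjusted over 4 pairs). With the length of all exons combined its share was smaller. By that length MACROH2A1 was at 23.3 and MACROH2A2 at 2.09 CPM per kilobase in control.

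H1-10 (ENSG00000184897.7, minus strand, chr3:129314771-129316277), the linker histone also called H1X, did not pass the test. It was at 319, 349 and 354 CPM in control and at 320, 354 and 332 CPM in MEF2C-OE, with overlapping groups. The log2 fold change was -0.02 (95% interval -0.14 to 0.10, edgeR adjusted p = 0.782). With the GC and length trends removed it was 0.18, with an adjusted p of 6.4e-09, so the call for H1-10 depends on that step. Its transcript is 68.6% G and C, the highest of the 9 genes. An antisense gene, H1-10-AS1, covers 22.9% of its exon bases, and the strand setting of the counting was not given in the sources used here. H1-10-AS1 had 365 to 493 reads in control and 420 to 557 in MEF2C-OE, against 17231 to 18998 reads for H1-10.

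**Figure D2:**
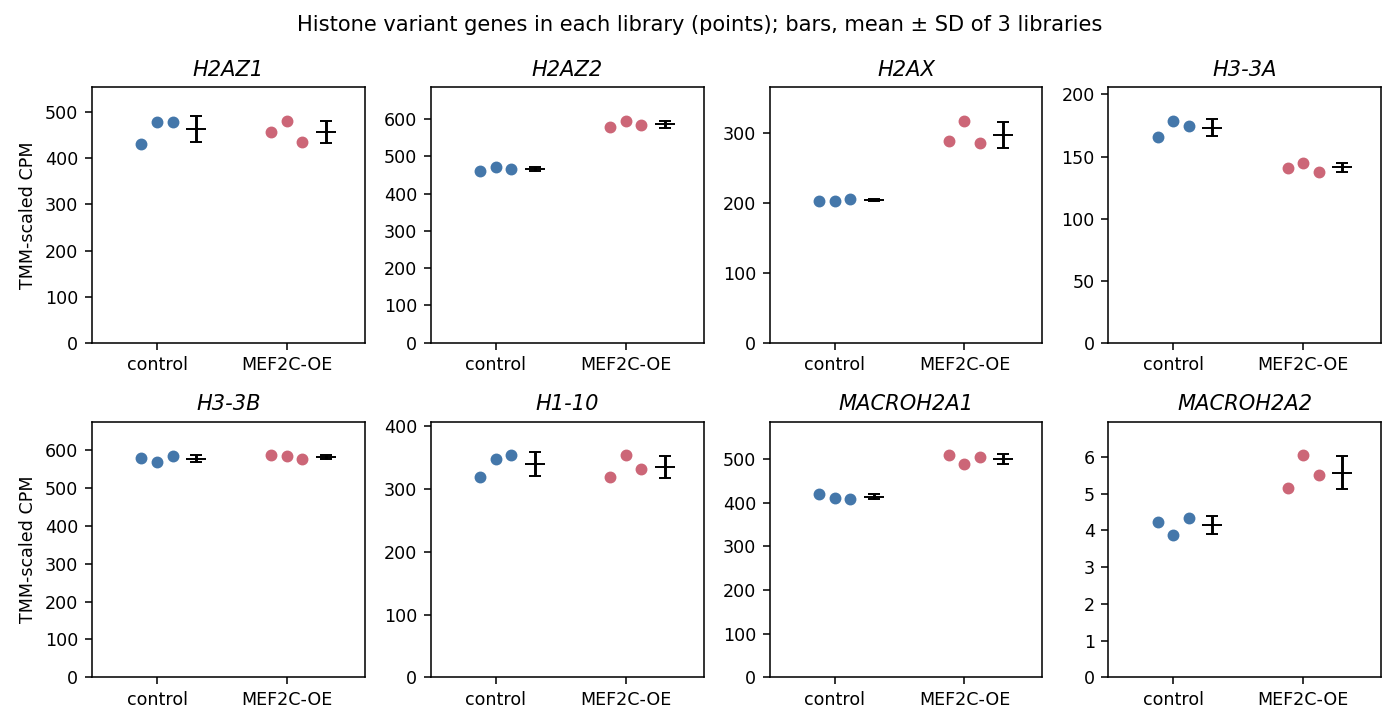
Level of each variant gene in every library (vertical axes, TMM-scaled CPM), with control in blue, MEF2C-OE in red and bars for the mean ± SD of 3 libraries. The MEF2C-OE libraries lie above control for H2AZ2, H2AX, MACROH2A1 and MACROH2A2 and below control for H3-3A, and overlap control for H2AZ1, H3-3B and H1-10.

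**Figure D3:**
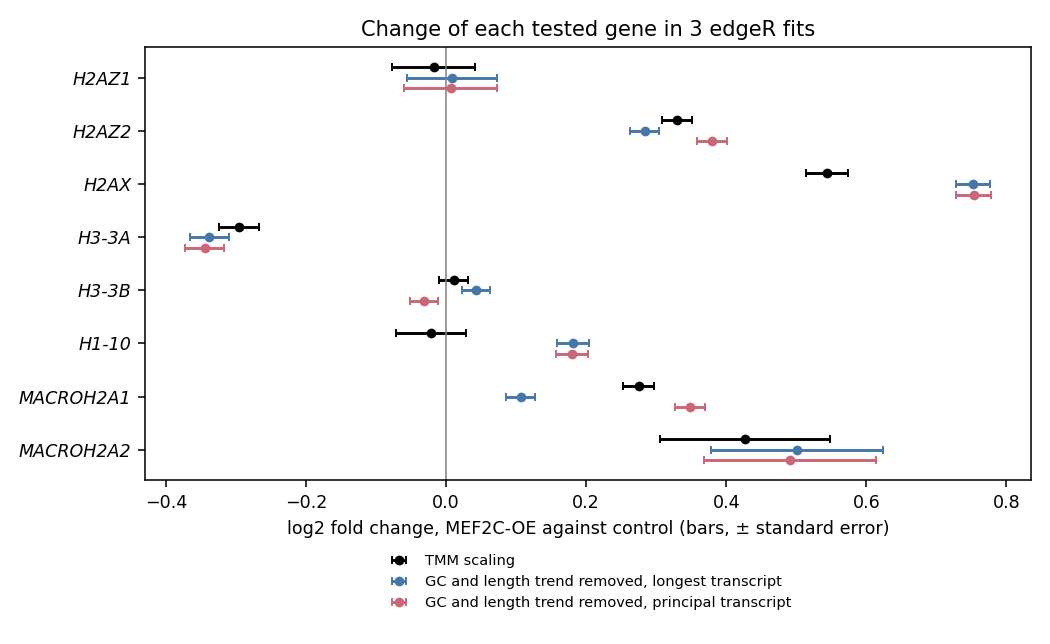
Log2 fold change of MEF2C-OE against control for the 8 tested genes (horizontal axis; bars, ± standard error) in edgeR with TMM scaling (black) and with GC and length trends removed by the longest (blue) or the principal (red) transcript. H2AX lies farthest to the right in all 3 fits, H1-10 moves from -0.02 to 0.18 once the trends are removed, and MACROH2A1 differs most between the choices of transcript.

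Levels of different genes were compared as CPM per kilobase of the principal transcript. In control, H2AZ2 was highest at 620 ± 7.66 and H2AZ1 next at 473 ± 28.5 (SD, n = 3 each). H1-10 at 226 and H3-3B at 214 followed and overlapped each other. MACROH2A1 was at 148, and H3-3A at 132 and H2AX at 126 overlapped each other. MACROH2A2, at 2.09, was far below these 7 genes, and H2AJ was lowest. In MEF2C-OE the order was the same down to H3-3B, and H2AX moved from place 7 to place 5. H2AX at 184 then overlapped MACROH2A1 at 180, and both were above H3-3A at 108. H2AX also gives mRNA without a poly(A) tail, and the RNA selection was not given in the sources used here. Its place among the genes is uncertain to that extent. The order depends on the length used: with the length of all exons combined, H1-10 came first at 226 and H2AZ1 second at 201 in control, with H2AX at 126 and H2AZ2 at 98.2 next.

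**Figure D4:**
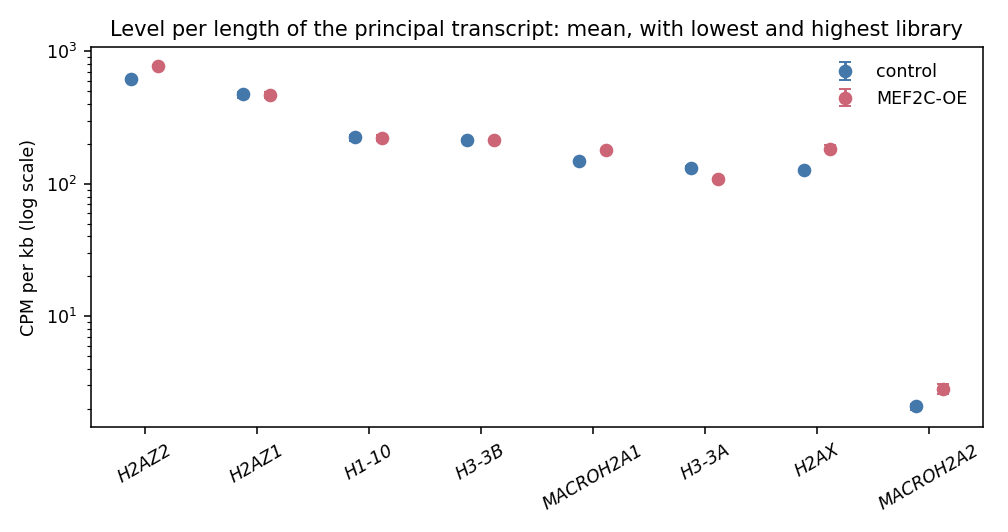
Level of each variant gene per kilobase of its principal transcript (log axis, CPM per kilobase), as the mean of 3 control (blue) or MEF2C-OE (red) libraries with bars from the lowest to the highest library, mostly hidden by the points; H2AJ, almost without reads, is left out. H2AZ2 and H2AZ1 lie highest, and MACROH2A2 lies far below the other 7 genes shown.

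The 9 genes together held 2585, 2665 and 2680 CPM in control and 2885, 2973 and 2861 CPM in MEF2C-OE. Every MEF2C-OE library was above every control library, with means of 2643 ± 51.2 and 2906 ± 59.2 CPM (SD, n = 3 each), a ratio of 1.10. The exact two-sided permutation p was 0.1, the smallest possible here.

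The genes that place, remove or read these variants moved in both directions. Beside the counts of each list below, 20.8% of all tested genes passed as higher and 20.2% as lower. With the GC and length trends removed, 3648 of 19086 genes passed as higher and 3616 as lower. Of 22 tested genes of H2A.Z exchange, 8 rose, 6 fell and 8 did not pass the test, with a median log2 fold change of 0.01. TRRAP, a scaffold of the TIP60 acetyltransferase complex, was at 374 ± 2.58 CPM in control and 499 ± 6.02 CPM in MEF2C-OE, a log2 fold change of 0.41 (edgeR adjusted p = 1.18e-19). EP400, the ATPase of that complex, rose by 0.21 on the log2 scale, and ING3, another subunit, by 0.23. With the GC and length trends removed, EP400 had a log2 fold change of 0.14, ING3 of 0.15 and the list a median of -0.03, with 7 genes higher and 4 lower. ZNHIT1, a subunit of the SRCAP complex that deposits H2A.Z, fell from 40.7 ± 1.09 to 33.0 ± 1.46 CPM (log2 fold change -0.30, edgeR adjusted p = 2.02e-06).

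Of 7 tested genes of H3.3 deposition, 4 rose, none fell and 3 did not pass, with a median log2 fold change of 0.11. Among all tested genes 20.8% rose and 20.2% fell. With the GC and length trends removed, 2 rose and 2 fell. UBN1, a subunit of the HIRA complex, was at 151 ± 0.945 CPM in control and 186 ± 4.29 CPM in MEF2C-OE, a log2 fold change of 0.30 (edgeR adjusted p = 4.99e-13). ASF1A, a histone chaperone that hands H3.3 to HIRA, rose by 0.23 on the log2 scale. UBN2, a paralog of UBN1, had a log2 fold change of 0.13, and -0.11 with the trends removed. ATRX, which deposits H3.3 with DAXX, had 0.11, and -0.10 with the trends removed. Of 5 tested genes that deposit the replication-coupled H3, 3 rose, none fell and 2 did not pass, with a median log2 fold change of 0.20: the CAF-1 subunits CHAF1A (0.35) and CHAF1B (0.24) and the chaperone ASF1B (0.20). With the trends removed, 3 were higher and 1 lower (RBBP4, -0.14, edgeR adjusted p = 4.44e-08), and ASF1B had 0.36.

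Of 9 tested genes that phosphorylate H2AX, act downstream of that mark or remove it, 6 rose, none fell and 3 did not pass. Their median log2 fold change was 0.10. Among all tested genes 20.8% rose and 20.2% fell. With the GC and length trends removed, 4 rose and 3 fell, and the median was 0.01. PRKDC, the DNA-dependent protein kinase, was at 449 ± 7.81 CPM in control and 580 ± 13.8 CPM in MEF2C-OE, a log2 fold change of 0.37 (edgeR adjusted p = 1.18e-17), which was 0.19 with the trends removed. MDC1, the reader of phosphorylated H2AX, rose by 0.32 on the log2 scale, and BAZ1B, a kinase of the terminal tyrosine of H2AX, by 0.29. PPM1D, a phosphatase of the mark, had a log2 fold change of 0.16 (edgeR adjusted p = 0.00152), which was 0.09 with the trends of the principal transcript removed (adjusted p = 0.0992). Of 9 tested general chaperones, 4 rose, 2 fell and 3 did not pass, with a median log2 fold change of 0.03. With the trends removed, 5 rose and 4 fell. SET rose from 1132 ± 13.1 to 1347 ± 27.7 CPM (log2 fold change 0.25, edgeR adjusted p = 7.52e-14), SUPT6H rose by 0.19 on the log2 scale, and APLF, a repair factor that binds histones, rose by 0.53. NPM1, the nucleolar chaperone, fell from 485 ± 9.98 to 404 ± 2.89 CPM (log2 fold change -0.26).

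**Figure D5:**
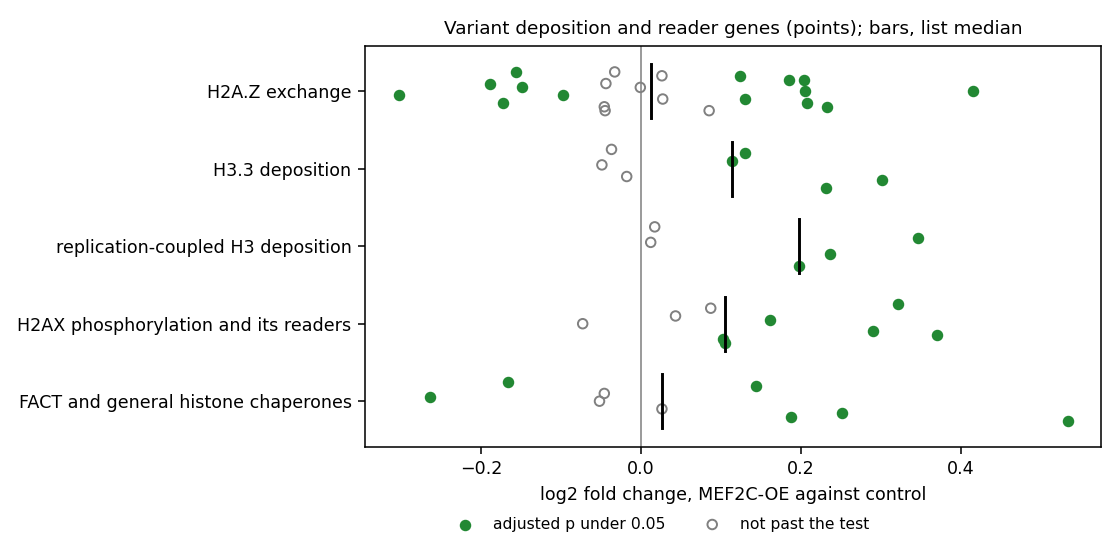
Log2 fold change of MEF2C-OE against control for each tested gene of 5 lists (points; filled where the adjusted p was under 0.05), with a bar at the median of each list. H2A.Z exchange genes lie on both sides of 0 with a median of 0.01, and the median of the H3.3 deposition genes is 0.11.

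The 3 genes whose levels followed those of H2AZ2, the member highest per length of the principal transcript though not of all exons combined, most closely over the 6 libraries were FOXK2 (Pearson r of 0.9996), PCM1 (0.9994) and RMND5B (0.9991), out of 9476 genes of at least 10 CPM. Their log2 fold changes were 0.17, 0.34 and 0.36. These correlations describe 6 libraries in 2 groups and carry no test.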

How the data were processed

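Total RNA was extracted with TRIzol and sequenced from TruSeq libraries, per the labels' protocols. Raw counts of reads per gene were deposited, made by the authors with Trim Galore, STAR and HTSeq on hg38, per the submitters' processing notes. Versions, annotation release, RNA selection and strand setting were not given in the sources used here. Between 70.9% and 71.3% of counted reads fell in genes, 20.9% to 21.8% in no feature, 3.31% to 3.46% were ambiguous and 4.03% to 4.68% did not align uniquely. Those lines entered no library size, and reads without a unique alignment lower the counts of genes with near copies.

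Symbols were found for 61481 of 78932 identifiers. Coordinates come from GENCODE 29 (GRCh38) and promoters from RefSeq (all 9 genes matched). Counts were tested in R 4.3.3 with edgeR 4.0.16 (robust quasi-likelihood, default count filter, TMM; n = 3 against 3 libraries) and limma 3.58.1; the alternatives used DESeq2 1.42.0, limma-voom, other scalings and filters, a replicate block, GC and length offsets, and each library left out. The offsets are splines of 5 degrees of freedom on GC content and transcript length, known for 88.8% of tested genes; those of the principal transcript, and combined exon lengths for shares, were added after seeing the data. Each library counted once. Replicates of 1 group differed by more than counting noise (chi-square per degree of freedom 3.08 to 5.17). That spread may be technical and does not make them independent replicates of the condition. Floors and intervals cover counting error or library spread only. The test was also run on simulated counts that had the same spread setting for every gene, unlike these data. No conclusion is drawn from that run. Figures were drawn with matplotlib 3.10.9.

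The genes and lists were chosen with earlier results of these data known. All 9 genes are named whatever their values; of each list, up to 4 called genes of largest absolute log2 fold change with a mean of at least 1 CPM; and the 3 genes most like the member highest per length of the principal transcript. H3P6, RBBP4, H1-4 and the antisense and near-copy genes were named after their values were seen. A tested gene is not reported here.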

Additional observations from a re-analysis of the deposited data

How the results depend on the processing

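Over 16 alternatives, H2AZ2, H2AX, MACROH2A1 and MACROH2A2 passed as higher and H3-3A as lower in all 16, with log2 fold changes of 0.28 to 0.38, 0.49 to 0.75, 0.11 to 0.35, 0.37 to 0.50 and -0.34 to -0.27. The largest adjusted p among them was 0.0278, for MACROH2A2. H2AZ1 and H3-3B passed in none, and H1-10 passed as higher in the 3 settings that remove GC and length trends, so that 5 genes rose there. The log2 fold change of H2AZ1 changed sign with library totals (0.0018) and with the trends removed (0.0086, 0.0087 with the block, and 0.0063 by the principal transcript), and was -0.0675 to 0.0196 over the libraries left out. That of H3-3B was -0.031 by the principal transcript and -0.0012 to 0.0194 over the libraries left out. H1-10 had 0.1814 with the trends removed, 0.1815 with the block and 0.1799 by the principal transcript, and -0.0669 to 0.0143 over the libraries left out. The cause of these sign changes was not tested. Same-numbered replicates did not deviate together over many genes (correlations of 0.02, -0.03 and -0.03 over 10723 genes). A pairing that affects few genes would not be seen this way, and the labels state none. With a replicate block 3953 genes rose and 3845 fell, H2AX had 0.54, and no call of the 9 genes changed. Library totals put 55.3% of called genes higher, against 50.7% with TMM. Depth limits H2AJ, and 3 against 3 libraries limit the permutation tests.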

Other observations

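Of the histone variant genes outside the 9 described above, CENPA, the H3 variant of centromeres, rose from 27.6 ± 1.72 to 33.4 ± 2.13 CPM (SD, n = 3 each; log2 fold change 0.27, edgeR adjusted p = 0.000103).

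Replication-dependent histone genes were tested where they passed the count filter. Beside their counts, 20.8% of all tested genes passed as higher and 20.2% as lower. With GC and length trends removed, 3648 of 19086 genes passed as higher and 3616 as lower. Of 8 tested H2A genes of 16 listed, 2 rose and none fell, H2AC6 from 99.3 ± 1.17 to 131 ± 4.27 CPM and H2AC11 from 28.5 ± 2.90 to 44.1 ± 0.957 CPM, with log2 fold changes of 0.40 and 0.63. With GC and length trends removed, 4 H2A genes were higher and none lower, and the median over the 8 was 0.55 in place of 0.37. Of 8 tested H3 genes of 13 listed, 2 rose and none fell: H3C13 from 1.65 ± 0.470 to 3.12 ± 0.737 CPM and H3C2 from 1.68 ± 0.0531 to 2.41 ± 0.619 CPM. With the trends removed 3 were higher and none lower. H3C2 had an edgeR adjusted p of 0.0309, which was 0.244 without MEF2C-OE replicate 2, 0.0576 to 0.0824 without any 1 of control replicates 1 to 3 or MEF2C-OE replicate 1, 0.0619 by limma-voom and 0.051 with no count filter. Of 4 tested H1 genes of 5 listed, H1-2 fell from 46.3 ± 2.27 to 37.0 ± 3.55 CPM (log2 fold change -0.32). With the trends removed H1-2 had -0.16 (edgeR adjusted p = 0.0136) and H1-4 passed as higher (0.35, adjusted p = 0.0286). These genes give mRNA that mostly lacks a poly(A) tail, and the RNA selection was not given in the sources used here, so their levels cannot be set against those of the variants.

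Genes that overlap or resemble the variant genes differed widely in their reads. UNK, opposite H3-3B over 214 bases, had 3916 to 4466 reads, against 28376 to 32930 for H3-3B. AIFM2, opposite MACROH2A2 over 11 bases, had 421 to 632 reads, more than the 204 to 315 of MACROH2A2. H3P6 had 766 to 1091 reads, against 7039 to 9448 for H3-3A. H2AZ1-DT, opposite H2AZ1 over 223 bases, had 86 to 123 reads. PITX1-AS1, opposite MACROH2A1 over 4968 bases, had 80, 77 and 81 reads in control and 113, 109 and 87 in MEF2C-OE (log2 fold change 0.37, edgeR adjusted p = 0.156). H2AZ2P1, which holds 14.8% of the 50-base stretches of the principal H2AZ2 transcript, had 0 reads in all 6 libraries.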
